A study of Homo sapiens with 4 samples.

Results

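CTCF occupancy was examined at 7 loci that carry haematopoietic transcription factor genes: TAL1, LMO2, GATA2, MYB, RUNX1, GFI1B and BCL11A. The cells were K562, an established line of human erythroleukaemia. They had received aclarubicin (10 µM) or daunorubicin (10 µM) during 4 hours, in 2 biological replicates for each drug, and were profiled by CTCF chromatin immunoprecipitation and sequencing. A peak was counted at a locus when its summit lay in a fixed window around the gene (GRCh37). The windows were set by gene position, but the loci were chosen with earlier results of these data known. The windows covered 2.25 Mb in all and held 64 peaks, which merged across libraries into 29 of the 13962 regions called in any library. By their labels, all libraries shared the line, the dose and the time of treatment, and differed by drug and replicate. Each value sets one drug against the other, since no untreated library was analysed here, and the labels do not say whether the replicates were grown as separate cultures.

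CTCF is a zinc-finger protein that binds DNA in an orientation-dependent way, stops loop-extruding cohesin and so marks the anchors of many chromatin loops and domain boundaries. TAL1, LMO2 and GATA factors act together in one DNA-bound complex of blood progenitors and erythroid cells, and RUNX1 and MYB govern progenitors. GFI1B and BCL11A are repressors of transcription that act in blood cells. At TAL1 and LMO2, loss of CTCF-bound boundaries is known to accompany activation of the genes in T-cell leukaemia. Aclarubicin and daunorubicin are DNA-intercalating anthracyclines, of which daunorubicin also traps topoisomerase II.

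The 7 windows held more peaks after aclarubicin. They had 20 of the 10633 peaks of aclarubicin replicate 1 and 22 of the 10711 peaks of replicate 2. Under daunorubicin they had 10 of 5886 peaks in replicate 1 and 12 of 6638 in replicate 2. Both aclarubicin counts were above both daunorubicin counts, with means of 21.0 ± 1.41 and 11.0 ± 1.41 peaks (SD, n = 2 each), a ratio of 1.91. On the log2 scale they differed by 0.94, where the pooled SD of replicates was 0.15 (exact two-sided permutation p = 0.3333, the lowest p possible with 2 libraries on each side). The whole lists differed in the same direction, by 0.77 on the log2 scale and a ratio of 1.70.

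Set against the length of each list, both aclarubicin shares were above both daunorubicin shares, by a smaller margin than the counts. They held 0.188% (95% Wilson interval 0.122% to 0.290%) and 0.205% (0.136% to 0.311%) of the aclarubicin lists. In the daunorubicin lists the shares were 0.170% (0.0923% to 0.312%) and 0.181% (0.103% to 0.316%). The intervals cover counting error only, and all 4 overlap. The mean difference of 0.0214 percentage points compares with a pooled SD of 0.0102 (exact permutation p = 0.3333), and it turned to -0.0039 points when peaks with a fold under 5 were removed. Density in the windows exceeded that of the whole list in each library: 8.89 and 9.78 peaks per Mb against 3.61 and 3.64 under aclarubicin, and 4.44 and 5.33 against 2.00 and 2.26 under daunorubicin.

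**Figure D1:**
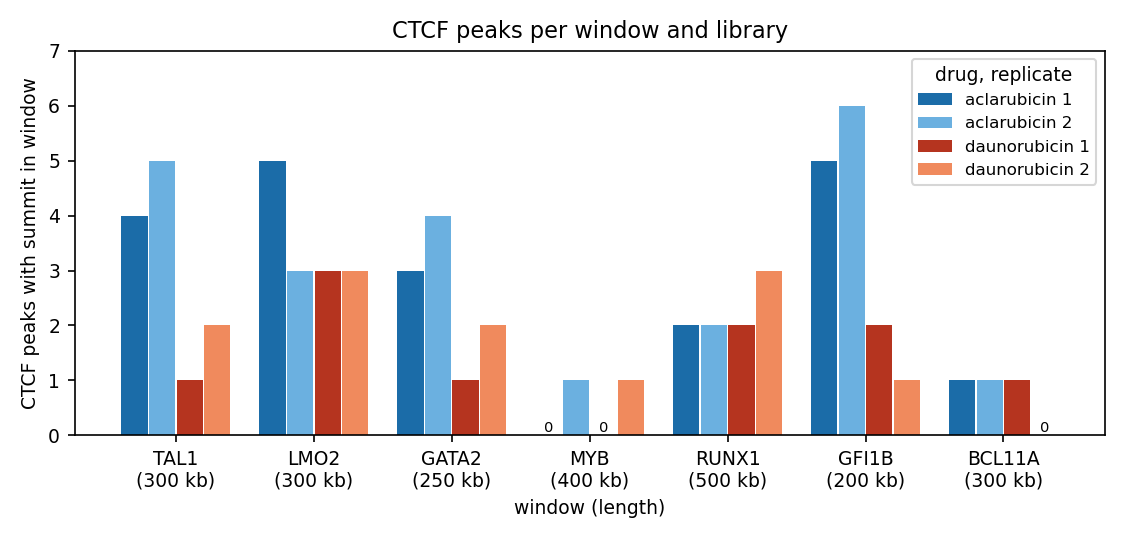
Bars give the number of CTCF peaks (vertical axis) with a summit in each window (horizontal axis, with the window's length), 1 bar per library, and 0 marks an empty window. TAL1, GATA2 and GFI1B have more peaks in both aclarubicin libraries than in either daunorubicin library, which in lists of equal length holds at TAL1 alone; RUNX1 has 2, 2, 2 and 3.

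The excess under aclarubicin was unevenly spread over the loci. GFI1B had 5 and 6 peaks under aclarubicin and 2 and 1 under daunorubicin. TAL1 had 4 and 5 against 1 and 2, and GATA2 had 3 and 4 against 1 and 2. At these 3 of the 7 loci (42.9%) both aclarubicin counts were above both daunorubicin counts, against 38.8% of the 4904 tiles of 300 kb, the commonest window length, that had a peak in any library. The share in the windows is thus near the background. In lists cut to the 5886 strongest peaks each, TAL1 still had 3 and 4 peaks against 1 and 1, but GATA2 had 1 in every library and GFI1B had 2 and 3 against 2 and 1, so the drugs no longer separated at either. LMO2 had 5 and 3 peaks against 3 and 3, and RUNX1 had 2 and 2 against 2 and 3. BCL11A had 1 and 1 against 1 and 0, and MYB had 0 and 1 against 0 and 1. MYB was thus empty in replicate 1 of both drugs and BCL11A in daunorubicin replicate 2, and no other window was empty in any library. The member nearest to the edge of a window was TAL1 region 1, 7.37 kb inside, and the nearest summits left out lay above the BCL11A window, by 1.90 to 1.93 kb in the 4 libraries.

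By region, 18 were called in both aclarubicin libraries. Of these, 9 (50.0%) were called in neither daunorubicin library, where the share over all such regions was 37.7%. Another 3 (16.7%) were called in exactly 1 daunorubicin library (15.6% over all), and 6 (33.3%) in both (46.7% over all). With 18 regions, these shares differ from the whole by 3 regions or fewer. The 9 regions lay at TAL1 (3), GFI1B (3), GATA2 (2) and BCL11A (1), and none lay at LMO2, MYB or RUNX1. Conversely, both daunorubicin libraries shared 8 regions, of which 2 (25.0%) were called in neither aclarubicin library, 1 at GATA2 and 1 at RUNX1. Over all 4872 regions called in both daunorubicin libraries this share was 9.09%, and the share in the windows rests on 2 regions. The remaining 9 of the 29 regions (31.0%) were called in 1 library only, near the 28.7% found over all regions.

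**Figure D2:**
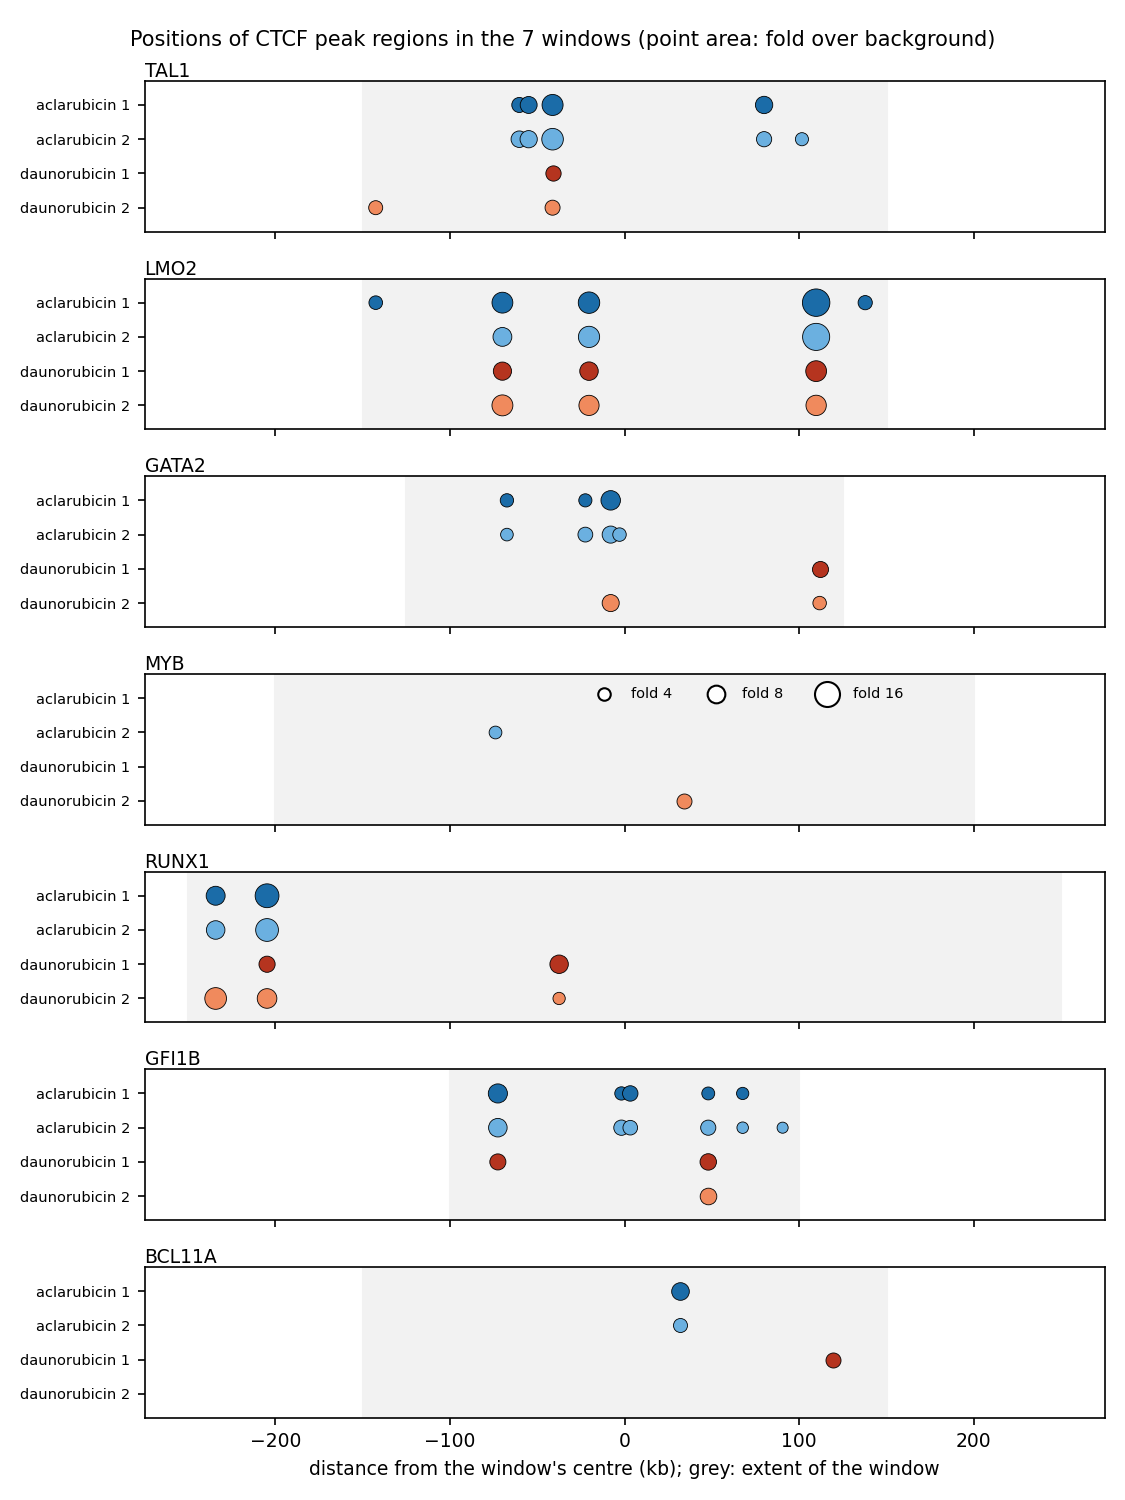
Each panel is a window, with distance from its centre in kb along the horizontal axis and 1 line per library. A point is a called region, its area is proportional to the peak's fold over background, and the grey band is the window; the LMO2 panel shows 3 regions in all 4 libraries, the RUNX1 and GATA2 panels a region in both daunorubicin libraries only.

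Regions are numbered below from the low-coordinate end of each window. A peak is described by its deposited fold over background and the −log10 q of that enrichment. The fold was also ranked as a percentile within its own list, since lists differ in length. From the fold and the p-value, the number of sequenced fragments over the summit was recovered under an assumed formula. For comparison between drugs it was divided by the relative depth of the library. Taking aclarubicin replicate 1 as 1, that depth was 1.04 in aclarubicin replicate 2, 0.997 in daunorubicin replicate 1 and 0.814 in daunorubicin replicate 2. A library without a call has no deposited value, so its occupancy is unknown there, not shown to be absent. The lowest −log10 q that was listed lay between 2.02 and 2.21 in the 4 lists. The windows bear on gene loci only: which exons, introns or promoters the regions overlap was not analysed here, for want of a GRCh37 annotation.

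TAL1 encodes a basic helix-loop-helix factor required for blood formation and erythroid maturation, and its window (chr1, 47.55 to 47.85 Mb) held 6 regions. The strongest, region 4 at chr1:47658409-47659028, was the one called in all 4 libraries. Its fold was 11.3 and 11.9 in the aclarubicin replicates, with −log10 q of 115 and 135, and 5.98 and 5.77 in the daunorubicin replicates, with −log10 q of 21.6 and 17.0. Its summit carried 172 and 195 fragments under aclarubicin, and 52 and 42 under daunorubicin, and the drugs did not overlap. Divided by the estimated relative depth, this is a ratio of daunorubicin to aclarubicin of 0.289, or -1.79 on the log2 scale against a pooled SD of 0.06 (exact permutation p = 0.3333). Scaled instead to the median of the regions called in all 4 libraries, the log2 difference was -1.08. The difference is lower than that of all but 2.94% of the regions called in all 4 libraries. Region 4 also ranked lower within the daunorubicin lists, at the 29.0 and 17.9 percentiles of fold against 81.1 and 85.7 under aclarubicin.

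The 2 regions beside it were called only under aclarubicin and form a cluster with it: region 2 (chr1:47639488-47639875) and region 3 (chr1:47644823-47645238) lay 4.95 kb apart, and region 3 lay 13.2 kb from region 4. Region 3 had 100 and 114 fragments in the 2 replicates, folds of 7.35 and 7.61, and a −log10 q of 49.9 and 58.4. This is more fragments than region 4 had under daunorubicin. Region 2 was weaker, with 42 and 60 fragments and folds of 5.82 and 6.99. On the other side of the window, 121 kb above region 4, region 5 (chr1:47779639-47780114) had 86 and 75 fragments and folds of 7.71 and 5.93, again without a call under daunorubicin. Regions 1 and 6 were weak single calls, with folds of 5.03 in daunorubicin replicate 2 and 4.40 in aclarubicin replicate 2. The background fragment number at TAL1 peaks was high for its list, at 2.06 and 1.97 times the list's median under aclarubicin and 1.86 and 1.17 times under daunorubicin, and its part in the calls was not tested.

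LMO2, the LIM-domain protein that bridges TAL1 and GATA factors, had more regions in common between the drugs than any other of the 7 windows (chr11, 33.75 to 34.05 Mb). Here 3 of 5 regions were called in all 4 libraries, and no region was specific to both replicates of a drug. Region 4, at chr11:34009454-34009930, had the highest fold of any member, 19.3 and 18.8 under aclarubicin, at the 99.3 percentile of each list. Its folds under daunorubicin were 11.0 and 10.6, at the 89.9 and 80.8 percentiles. The summit held 131 and 134 fragments under aclarubicin and 43 and 40 under daunorubicin, with no overlap between the drugs. The depth-scaled ratio was 0.355, a log2 difference of -1.50 against a pooled SD of 0.10 (exact permutation p = 0.3333).

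The other shared regions at LMO2 differed less. Region 3 (chr11:33879366-33879817) had 84 and 82 fragments under aclarubicin and 40 and 41 under daunorubicin, a depth-scaled log2 difference of -0.86 with a pooled SD of 0.17 (exact permutation p = 0.3333). Its rank stayed high, at percentiles of 83.5 and 83.5 and then of 71.2 and 79.2. Region 2 (chr11:33829809-33830189) had 39 and 33 fragments under aclarubicin and 29 and 33 under daunorubicin, so the drugs overlapped. Its log2 difference of -0.03 was smaller than the pooled SD of 0.28 (exact permutation p = 1), and its sign changed with the scaling. The depth-scaled ratios of daunorubicin to aclarubicin at regions 2, 3 and 4 were 0.977, 0.553 and 0.355, with gaps of 49.2 and 130 kb between these regions. Scaled instead to the median of the regions called in all 4 libraries, the log2 differences were 0.68, -0.14 and -0.78. A trend with position was not tested, and 3 regions are too few to show one. Regions 1 and 5 were called in aclarubicin replicate 1 only, with folds of 4.75 and 5.18.

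GATA2, the zinc-finger factor of stem and progenitor cells that gives way to GATA1 in erythroid maturation, had no region called in all 4 libraries (chr3, 128.10 to 128.35 Mb). The strongest of 5 was region 3, at chr3:128216823-128217209, with folds of 9.70 and 7.48 under aclarubicin, 7.46 in daunorubicin replicate 2, and no call in daunorubicin replicate 1. Its fragments numbered 90 and 78 under aclarubicin and 37 in the single daunorubicin call. Regions 1 and 2 were called only under aclarubicin and were low in the lists, with folds of 4.57 and 4.09 at chr3:128157361-128157796 and of 4.43 and 5.62 at chr3:128202315-128202688. Region 4, 4.71 kb above region 3, was a single call in aclarubicin replicate 2. Region 5, at chr3:128336547-128336841, was called only under daunorubicin: it had 38 and 22 fragments in replicates 1 and 2, folds of 6.60 and 4.67, and a −log10 q of 17.6 and 7.04. The called positions under daunorubicin thus included the end of the window 114 kb above the nearest other region, where neither aclarubicin library had a peak.

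RUNX1 encodes the DNA-binding subunit of core-binding factor and is transcribed from a distal and a proximal promoter. Its window (chr21, 36.05 to 36.55 Mb), the longest, held 3 regions, each with its own pattern of calls. Region 2, at chr21:36094902-36095472, had 99 and 84 fragments under aclarubicin and 27 and 43 under daunorubicin, without overlap. The depth-scaled log2 difference was -1.24 against a pooled SD of 0.50, the largest spread among the members called in all 4 libraries (exact permutation p = 0.3333). Without daunorubicin replicate 1 the difference was -0.76. Its percentiles were 93.6 and 91.5 under aclarubicin and 40.8 and 74.4 under daunorubicin, a difference of -35.0 points that became -18.2 without daunorubicin replicate 1. Region 1, 28.9 kb below it at chr21:36065526-36065963, was missing from daunorubicin replicate 1, but in daunorubicin replicate 2 it had 48 fragments, against 42 and 40 under aclarubicin, and a higher rank (90.2 against 66.2 and 63.3).

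Region 3 at RUNX1, chr21:36262267-36262674, was called only under daunorubicin, 167 kb above region 2. The replicates differed at this site. Replicate 1 had 59 fragments (95% exact Poisson interval 44.9 to 76.1, counting error only), a fold of 8.70 and a −log10 q of 33.9. Replicate 2 had 18 fragments (10.7 to 28.4), a fold of 3.86 and a −log10 q of 4.24, near the bottom of its list. Their summits lay at 36262493 and 36262333, so the peaks overlap but would not be joined if summits had to lie within 100 bp.

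Sequences upstream of GATA2 and RUNX1 are shown because their RefSeq promoters contain letters typical of the core of CTCF motifs. These letters were chosen after other spellings had been tried, so which genes match is not a result. A link between the letters and the calls under either drug was not tested. RefSeq promoters (GRCh38.p14, 250 bases before to 50 after a gene's start) were found for 6 of the 7 genes, 13 promoters in all. They were searched on both strands for CCNNNAGNNGGC, which occurs in 10.6% of the 35116 promoters in the table and in 2 of these 13. The capitals mark the matches, and the 250 bases before the start are printed 5′ to 3′ on the gene's strand, at chr3:128488531-128488780 for GATA2 and chr21:34888700-34888949 for RUNX1, both on the minus strand of GRCh38.
GATA2: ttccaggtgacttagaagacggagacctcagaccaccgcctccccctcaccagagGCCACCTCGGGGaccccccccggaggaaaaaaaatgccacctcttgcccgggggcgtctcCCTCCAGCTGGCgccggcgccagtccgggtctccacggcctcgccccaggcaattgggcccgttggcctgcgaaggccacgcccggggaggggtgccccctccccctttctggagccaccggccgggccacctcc
RUNX1: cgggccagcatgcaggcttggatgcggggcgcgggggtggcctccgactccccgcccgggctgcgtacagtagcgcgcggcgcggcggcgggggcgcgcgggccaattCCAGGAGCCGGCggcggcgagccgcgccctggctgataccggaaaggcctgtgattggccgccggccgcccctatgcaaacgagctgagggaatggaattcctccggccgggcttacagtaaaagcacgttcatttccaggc
The GATA2 matches begin 195 and 135 bases before the start, the first of them on the opposite strand, and the RUNX1 match begins 142 bases before it. These coordinates are of another build than the peaks, so whether a peak covers these letters was not analysed here, and a match is a description of the sequence only.

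GFI1B, a zinc-finger repressor needed for red cells and platelets, had the densest window (chr9, 135.75 to 135.95 Mb), with 6 regions in 200 kb. Region 4, at chr9:135897701-135898088, was called in all 4 libraries. It had 30 and 41 fragments under aclarubicin and 36 and 33 under daunorubicin, so that the drugs overlapped. The depth-scaled log2 difference of 0.15 was within the pooled SD of 0.21 (exact permutation p = 0.667), and its sign changed without scaling. In rank it was higher in both daunorubicin lists, at percentiles of 44.9 and 38.5 against 11.4 and 32.0, a difference of 20.0 points with a pooled SD of 10.8 points (exact permutation p = 0.3333). Without aclarubicin replicate 1 the rank difference was 9.71 points and without aclarubicin replicate 2 it was 30.3 points, and in lists of equal length the region was no longer called in all 4 libraries.

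The remaining GFI1B regions were seen mainly under aclarubicin. Region 1 (chr9:135777154-135777620) had 69 and 72 fragments under aclarubicin and 33 in daunorubicin replicate 1, with no call in replicate 2. Regions 2 and 3, a pair 4.77 kb apart at chr9:135848013-135848310 and chr9:135853081-135853373, were called in both aclarubicin libraries and in neither daunorubicin library. Region 2 had 38 and 49 fragments and region 3 had 62 and 54. Region 5 (chr9:135917440-135917781) belonged to the same class, with 35 and 32 fragments at folds of only 3.84 and 3.38. Region 3 had more aclarubicin fragments than region 4, over a higher background (9.33 and 9.04 against 6.27 and 6.13 fragments). Its folds under aclarubicin were 6.10 and 5.48, against 4.27 and 5.89 at region 4. Of these, only region 4 was called under daunorubicin. Region 6 was a single call in aclarubicin replicate 2, with a fold of 3.14.

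BCL11A, the repressor of fetal globin genes, and MYB, a progenitor factor whose neighbourhood is also linked to fetal haemoglobin, had few peaks. In the BCL11A window (chr2, 60.60 to 60.90 Mb), region 1 at chr2:60781422-60781787 was called under aclarubicin only, with folds of 7.96 and 5.05 and 36 and 19 fragments. Region 2, at chr2:60869517-60869748, was called in daunorubicin replicate 1 alone, with a fold of 5.80 and 18 fragments. The background at BCL11A peaks was low, at 0.654 and 0.495 times the list's median under aclarubicin and 0.538 times in daunorubicin replicate 1.

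The MYB window (chr6, 135.25 to 135.65 Mb) had 2 regions, each in 1 library. Aclarubicin replicate 2 had a peak at chr6:135375668-135376128 with a fold of 4.16 and 30 fragments. Daunorubicin replicate 2 had another, 108 kb away at chr6:135483836-135484125, with a fold of 5.76 and 28 fragments. Neither was repeated in the other replicate of its drug. In aclarubicin replicate 1, which had no peak here, the nearest summits lay 755 kb below and 123 kb above the window. In daunorubicin replicate 1 they lay 106 kb below and 898 kb above it. Of tiles of 400 kb, the length of the window itself, along chromosomes 1 to 22 and X, 50.5% and 50.6% had no peak in the aclarubicin lists and 62.9% and 58.5% none in the daunorubicin lists.

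Over the 6 members called in all 4 libraries, the fragment difference ranged from -1.79 to 0.15 on the log2 scale, with a median of -1.05. The median over all 4122 regions called in all 4 libraries was -0.70. Both daunorubicin values lay below both aclarubicin values at 4 of the 6 members, against 71.6% of all such regions, and above them at 0 of 6, against 7.13%. Scaling each library to its median over these 4122 regions, in place of the recovered depth, shifts that median to 0.01. Relative to the median of -0.70, TAL1 region 4 lay lower by 1.09, LMO2 region 4 by 0.79, RUNX1 region 2 by 0.54 and LMO2 region 3 by 0.15. LMO2 region 2 lay higher by 0.67 and GFI1B region 4 by 0.86. The members lay on both sides of this median, from TAL1 region 4 at one end to GFI1B region 4 at the other. A spread to both sides of a median is the ordinary case and is not a result about the members. Over all 4122 regions the quartiles were -1.10 and -0.26.

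**Figure D3:**
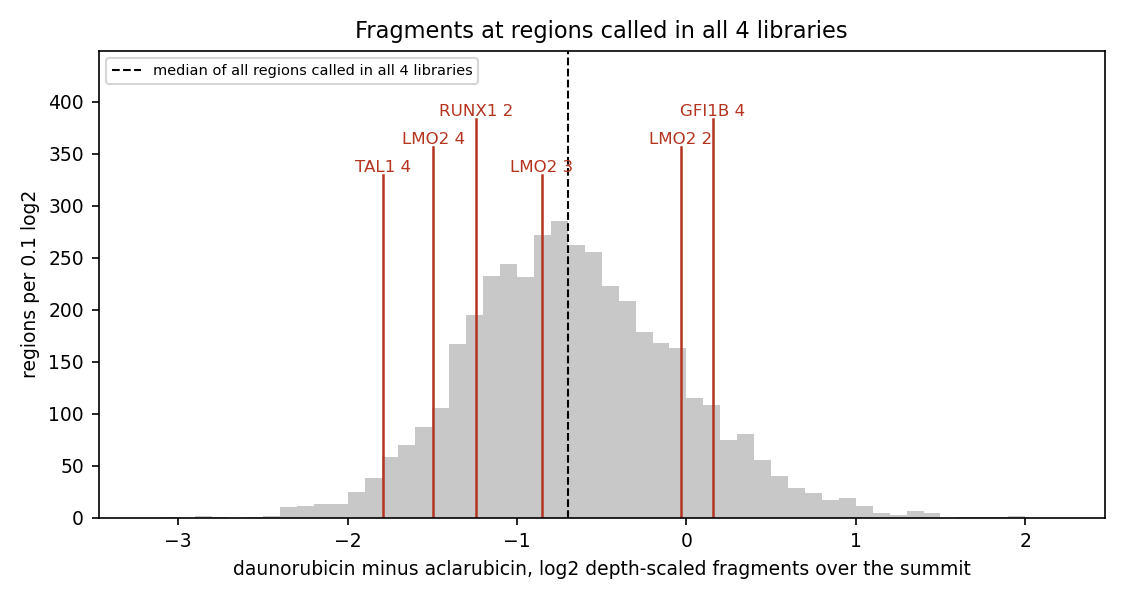
The grey histogram gives the number of regions (vertical axis) by the log2 difference in depth-scaled fragments, daunorubicin minus aclarubicin (horizontal axis), over 4122 regions called in all 4 libraries, and the dashed line is their median of -0.70. Red lines mark the 6 members, from TAL1 region 4 at -1.79 to GFI1B region 4 at 0.15.

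In rank, both daunorubicin percentiles of fold lay below both aclarubicin ones at 4 of these 6 members (51.2% over all regions called in all 4 libraries) and above them at 1 of 6 (16.4%). The 4 were TAL1 region 4, LMO2 regions 3 and 4 and RUNX1 region 2, and the 1 was GFI1B region 4. The median difference was -11.1 percentile points, near the -9.95 points over all such regions. These lists differ in length, and a percentile depends on how many weak peaks its list holds. In lists of 5886 peaks each, 5 members were called in all 4 libraries, and the ranks under daunorubicin were lower without overlap at 3 of them (31.0% over all 3330 such regions) and higher at 2 (30.4%). The 3 were TAL1 region 4, LMO2 region 4 and RUNX1 region 2, while LMO2 regions 2 and 3 were higher, by 23.7 and 3.73 points. With the full lists the largest difference was that of TAL1 region 4, at -60.0 points against a pooled SD of 5.99 (exact permutation p = 0.3333), and it was -50.5 points in lists of equal length.

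**Figure D4:**
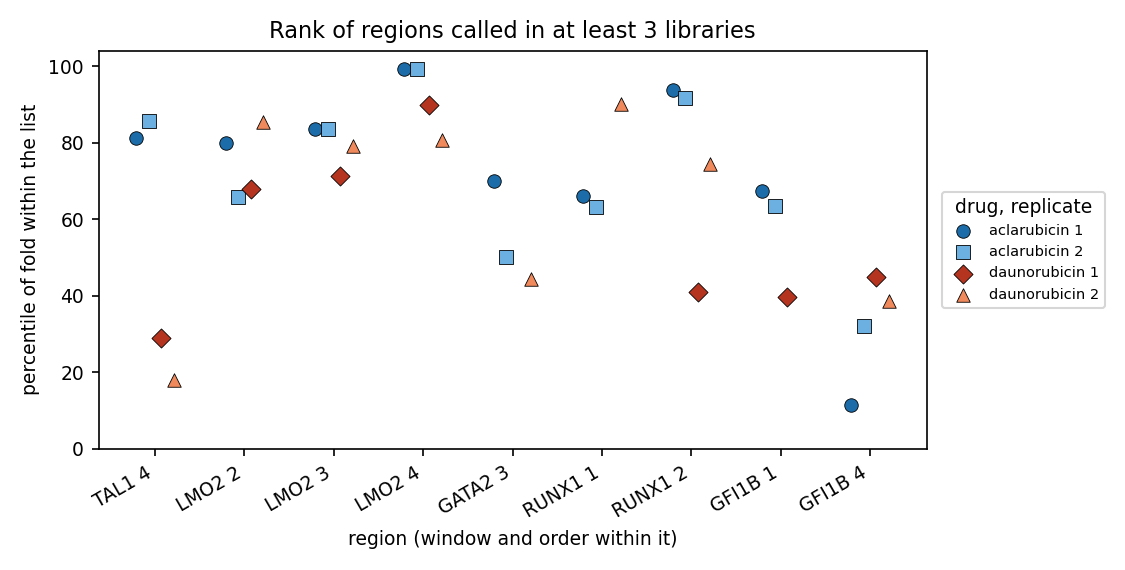
For the 9 regions called in at least 3 libraries, points give the percentile of the peak's fold within its own list (vertical axis), 1 symbol per library. TAL1 region 4 sits above 81 in both aclarubicin lists and below 29 in both daunorubicin lists, while GFI1B region 4 is higher in the daunorubicin lists.

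Regions called under aclarubicin only were of low to middle rank. Their mean percentile of fold ran from 5.40 at GFI1B region 5 to 49.7 at TAL1 region 3, with a median of 30.2, against 37.8 over all regions of this class. The 9 regions called in a single library were weaker, with folds of 3.14 to 5.80 and percentiles of 2.43 to 26.0. Among these, 2 were from aclarubicin replicate 1, 4 from aclarubicin replicate 2, 1 from daunorubicin replicate 1 and 2 from daunorubicin replicate 2.

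The median width of peaks in the windows was 373 and 388 bp under aclarubicin, against 369 and 381 bp in the whole lists. Under daunorubicin it was 324.5 and 369.5 bp, against 319 and 327.5 bp, so that the windows of replicate 2 had the wider peaks by more than in the other libraries. The means differed by 33.5 bp, with 23.7 bp as the pooled SD (exact permutation p = 0.3333), and by 51.8 bp over the whole lists. Without daunorubicin replicate 1 the difference in the windows was 11.0 bp and without daunorubicin replicate 2 it was 56.0 bp.

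For context, windows were set around 12 other genes of the same kind: GATA1, SPI1, KLF1, FLI1, ERG, IKZF1, ETV6, ZFPM1, CEBPA, NFE2, GFI1 and MEIS1. Their positions were entered by hand and only their chromosomes were checked against an annotation. These windows, 4.05 Mb in all, held 50 and 51 peaks under aclarubicin and 36 and 35 under daunorubicin. Of 45 regions called in both aclarubicin libraries, 15 (33.3%) were called in neither daunorubicin library. The share was 9 of 18 in the 7 windows and 37.7% over all such regions, and whether these shares differ was not tested. Both aclarubicin counts were above both daunorubicin counts in 6 of the 12 windows, against 38.8% of the 4904 tiles of 300 kb with a peak. The GFI1 and MEIS1 windows were empty in all 4 libraries. CEBPA had 9 and 8 peaks under aclarubicin and 2 and 3 under daunorubicin, and KLF1 had 12 and 13 against 12 and 10. GATA1 had 2 and 2 against 1 and 1, ZFPM1 had 5 and 4 against 3 and 2, and ERG had 2 in each library. SPI1 had 3 and 3 against 2 and 2, and IKZF1 and ETV6 each had 1 and 1 against 0 and 0. FLI1 had 5 and 6 against 5 and 5, and NFE2 had 10 and 11 against 9 and 10. Whether these counts go with the lineage of the gene was not tested.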

How the data were processed

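CTCF ChIP-seq of K562 was deposited as 1 peak list per library in narrowPeak format, without a header and not pooled. The submitters' processing notes name Bowtie2, Picard and bedtools and the build GRCh37 (hg19); the peak caller, its threshold and any control library are not given in the sources used here. The authors deposited for each peak a fold ratio over background, a −log10 p, a −log10 q, and a score that was not used. Files hold no read totals.

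Peaks were assigned by summit to windows whose bounds came with the request for these loci. The loci and lists were chosen with earlier results of these data known. Regions merged the 4 lists at an overlap of 1 bp. In each window, the 2 regions of highest mean percentile and every region called in both libraries of 1 drug and in neither of the other were to be described in full; the remaining regions are also given. Fragments k and background λ were solved from fold = (k + 1)/(λ + 1) and the Poisson p-value, an assumption about the caller: the solved k was whole to within 0.02 for 100% of peaks in each list. Relative depth was the lowest λ over the shortest peak. The solver and merging were tested on simulated data. Libraries were compared by exact two-sided permutation of 2 against 2, which cannot give a p below 0.3333. The promoter letters were chosen after other spellings had been tried. Density used the span between the first and last peak of each chromosome. Alternatives covered thresholds, list length, window size, merging, scaling, ranking, the replicate block and left-out replicates; those for single windows and the rank counts in lists of equal length, cut by p-value, were added after seeing the data. Analyses used Python 3.11.15, numpy 2.4.6, pandas 2.3.3, scipy 1.17.1 and matplotlib 3.10.9.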

Additional observations from a re-analysis of the deposited data

How the results depend on the processing

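The excess of peaks under aclarubicin in the 7 windows kept its direction under every alternative run, with log2 differences of 0.40 (lists of equal length) to 1.24 (windows narrowed by 50 kb), and of 0.81 to 1.07 with a replicate left out. The difference in the share of the list rose to 0.0510 percentage points with lists of equal length and reversed to -0.0039 with a fold of at least 5. With a replicate left out it ranged from 0.0128 to 0.0301. Regions called under aclarubicin only fell from 9 to 5 with a fold of at least 5 and to 3 with lists of equal length, where fewer peaks count as called; with a replicate left out they numbered 10 to 13. The 2 regions called under daunorubicin only became 1 with a −log10 q of at least 5, 0 at 10, 0 with a fold of at least 5, 1 with lists of equal length, 1 with windows narrowed by 50 kb and 1 with summits within 100 bp. They ranged from 2 to 4 with a replicate left out, with 4 when daunorubicin replicate 1 was left out and a single list defined the class. The median fragment difference of the members was -0.33 when scaled to the median, a scaling that brings the median over all 4122 shared regions to 0.01 by construction. With a replicate left out it was -1.14 to -0.72, the latter without daunorubicin replicate 1. The excess in single windows under lists of equal length was 2.5 peaks at TAL1 (from 3), 1 at GFI1B (from 4) and 0 at GATA2 (from 2). The difference in width was 14 to 63 bp over the other alternatives and 11 to 56 bp with a replicate left out.

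At single regions, LMO2 region 2 reversed in fragments to 0.68 when scaled to the median and lay between -0.27 and 0.21 with a replicate left out. In rank it moved from 3.85 points to 23.7 with lists of equal length, and lay between -4.87 and 12.6 points with a replicate left out. GFI1B region 4 reversed in fragments to -0.025 without scaling and lay between -0.041 and 0.35 with a replicate left out, and in rank between 9.71 and 30.3 points. RUNX1 region 2 lay between -1.72 and -0.76 in fragments with a replicate left out. LMO2 region 3 reversed in rank to 3.73 points with lists of equal length. The cause of these reversals was not tested. Under a replicate block, the difference in log2 peaks (0.94), the share (0.0214 points), the width (33.5 bp) and the shared-region medians (-1.05 and -11.1 points) did not change, as the design dictates, and an exact sign-flip permutation test cannot go below p = 0.5. Replicate numbers are not said to mark a shared batch, so libraries of the same number were not treated as pairs. The correlation of replicate differences over 4122 regions was -0.08. It covers only regions called in all 4 libraries, so it cannot exclude a batch that acts on weaker peaks or on the number of calls. The small number of peaks per window limits every count.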
